A study of Mus musculus with 2 samples.

Results

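Open chromatin at the promoters of the ribosomal protein genes was examined in mouse liver at embryonic day 11.5. The set holds every protein-coding gene of the GENCODE vM21 basic annotation whose symbol is Rpl or Rps followed by a number, with Rplp0 to Rplp2 and Rpsa, and without the Rps6k kinases, symbols of -ps and the binding protein gene Rps19bp1. This gave 85 of 21938 protein-coding genes. Of these, 46 encode proteins of the large subunit, 31 encode proteins of the small subunit, and 8 have symbols of paralogs (Rpl3l, Rpl7l1, Rpl10l, Rpl22l1, Rpl36al, Rpl39l, Rps27l and Rps27rt). The rule uses gene symbols and no measured value.

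Ribosomal proteins are structural parts of the ribosome and are made in near equal amounts, 1 copy of most proteins for each ribosome. Their genes are transcribed in all dividing cells, from promoters that are rich in CpG and that mostly start within a short run of pyrimidines. That run, the 5′ terminal oligopyrimidine tract, begins with a C and lets translation of these mRNAs follow growth signals. Loss of 1 allele of many of these genes causes Diamond-Blackfan anaemia in people, a failure of red cell formation. The liver is a site of red cell formation in the embryo at this age.

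The tissue came from embryos of strain B6NCrl, pooled over males and females, and no allele or treatment is named in the labels. The assay was DNase-seq, in which the nuclease DNase I cleaves exposed chromatin and the ends of the resulting cuts are read. There are 2 libraries, technical replicates 7 and 1 of biological replicate 1, made from the same biosample, and the labels name 2 sequencer models for technical replicate 7. With 1 biological sample and no second group no test across samples was possible. Values are set beside those over all protein-coding genes, or over those with a peak, where these were computed. Intervals are exact Clopper-Pearson 95% intervals and cover counting error only. In bulk tissue, fewer cells with an open site and less opening per cell cannot be told apart.

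The peak lists held 86036 peaks in technical replicate 7 and 42422 in technical replicate 1, so an equal rank percentile stands for more peaks ranked above it in technical replicate 7. Promoter peaks in both libraries were listed for 7 of 8 erythroid marker genes, 4 of 8 hepatoblast genes, 1 of 4 macrophage genes, 2 of 4 endothelial genes and 3 of 4 neuronal control genes. The share over all protein-coding genes was 59.4%, and these lists are short. The hepatocyte gene Alb and the erythroid gene Alas2 lacked such a peak in both, while Afp, Hnf4a and Dlk1, genes of early liver cells, had one only in technical replicate 7. Neuronal genes with a peak in both were Snap25, Tubb3 and Map2, so a promoter peak alone does not mark the cell type here. In technical replicate 7 the Tubb3 summit lay 88 bp from the principal start, defined below. Those of Snap25 and Map2 lay at 886 and −146531 bp, since a peak near any annotated start was counted.

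A promoter was called open where a peak overlapped the 1 kb on either side of any annotated start by at least 1 bp. Positions are given from the principal start, the start of the transcript with the best APPRIS tag; position 0 is the first transcribed base and negative values lie upstream. The promoters below show the letters behind the results, from 80 bases before the principal start to 29 after it, on the coding strand, read from GRCm38.p6. Capitals mark matches to the motifs searched. Rpl26 (chr11:68901503-68901612, plus strand) carries the palindrome of the ZBTB33 motif. Rps7 (chr12:28635924-28636033, minus strand), Rpl11 (chr4:136053364-136053473, minus strand) and Rpl37 (chr15:5116565-5116674, plus strand) carry an ETS motif touched by a footprint. Rps29 (chr12:69159157-69159266, minus strand) carries a CRE. Rps16 (chr7:28350572-28350681, plus strand) is shown as a promoter long used as a model for this gene family.
Rpl26: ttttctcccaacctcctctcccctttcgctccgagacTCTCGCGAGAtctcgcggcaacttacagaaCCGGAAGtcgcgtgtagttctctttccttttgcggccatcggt
Rps7: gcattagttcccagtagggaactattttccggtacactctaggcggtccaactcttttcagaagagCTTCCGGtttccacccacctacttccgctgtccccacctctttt
Rpl11: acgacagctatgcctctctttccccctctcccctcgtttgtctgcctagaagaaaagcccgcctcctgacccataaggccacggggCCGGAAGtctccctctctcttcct
Rpl37: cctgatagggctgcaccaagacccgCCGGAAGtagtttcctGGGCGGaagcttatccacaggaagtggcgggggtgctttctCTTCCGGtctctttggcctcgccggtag
Rps29: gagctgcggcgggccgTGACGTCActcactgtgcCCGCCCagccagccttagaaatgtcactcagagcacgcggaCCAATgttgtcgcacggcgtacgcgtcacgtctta
Rps16: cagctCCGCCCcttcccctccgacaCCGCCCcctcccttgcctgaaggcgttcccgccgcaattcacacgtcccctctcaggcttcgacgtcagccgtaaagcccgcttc

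All ribosomal protein genes other than 4 paralogs had open promoters in both libraries. A peak was listed for 81 of 85 genes in each library and for the same 81 in both (95.3%, interval 88.4 to 98.7). Over all protein-coding genes, 65.3% had a promoter peak in technical replicate 7, 59.9% in technical replicate 1 and 59.4% in both. All 46 large subunit genes and all 31 small subunit genes were open, against 4 of the 8 paralogs. Base composition differed alongside: 94.1% of the ribosomal protein genes were CpG-rich (CpG observed over expected of at least 0.6 within 500 bp of the principal start), against 47.4% of all protein-coding genes, and 93.5% of CpG-rich genes were open in both libraries. The 78 mitochondrial ribosomal protein genes, 19 other genes of translation and 25 genes of ribosome biogenesis were all open in both libraries too.

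The 4 closed genes were Rpl3l, Rpl10l, Rpl39l and Rps27rt. Rpl3l is known as the striated muscle form of Rpl3, and Rpl10l and Rpl39l as forms used in male germ cells. None of them had a footprint in the promoter window in either library. Their CpG observed over expected was 0.171 for Rpl3l, 0.408 for Rps27rt, 0.550 for Rpl39l and 0.720 for Rpl10l. Rpl10l is thus the only closed member above the CpG-rich limit. The other paralogs, Rpl7l1, Rpl22l1, Rpl36al and Rps27l, were open, with rank percentiles from 93.9 to 98.6 in technical replicate 7 and from 89.3 to 94.5 in technical replicate 1. Of 6 protein-coding genes with ribosomal -ps symbols, which the rule leaves out, 0 had a promoter peak.

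Peak strength was described by the rank percentile of a gene's strongest promoter peak, by highest cut density, within the peak list of its library. The median over the 81 open genes was 95.8 in technical replicate 7 (quartiles 93.3 and 98.1, range 83.1 to 99.8). Technical replicate 1 had a median of 90.4 (quartiles 83.6 and 94.5, range 62.6 to 99.5). All open protein-coding genes (n = 13036) had medians of 92.1 and 82.8, and CpG-rich genes with a peak had 93.4 and 86.2. Ribosomal protein genes thus ranked above the middle of open genes in both libraries. They were close to the genes of biogenesis (96.2 and 88.0) and mitochondrial ribosomal proteins (94.7 and 87.4), and below the other translation genes (97.4 and 93.6). The strongest peak lay in the top 10% of the list for 73 of 85 genes (85.9%) in technical replicate 7 and 42 (49.4%) in technical replicate 1. The share over all protein-coding genes, closed ones included, was 35% and 18.9%. Among open genes it was 58.9% and 31.8%, and among all CpG-rich genes 63.8% and 35.8%.

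**Figure D1:**
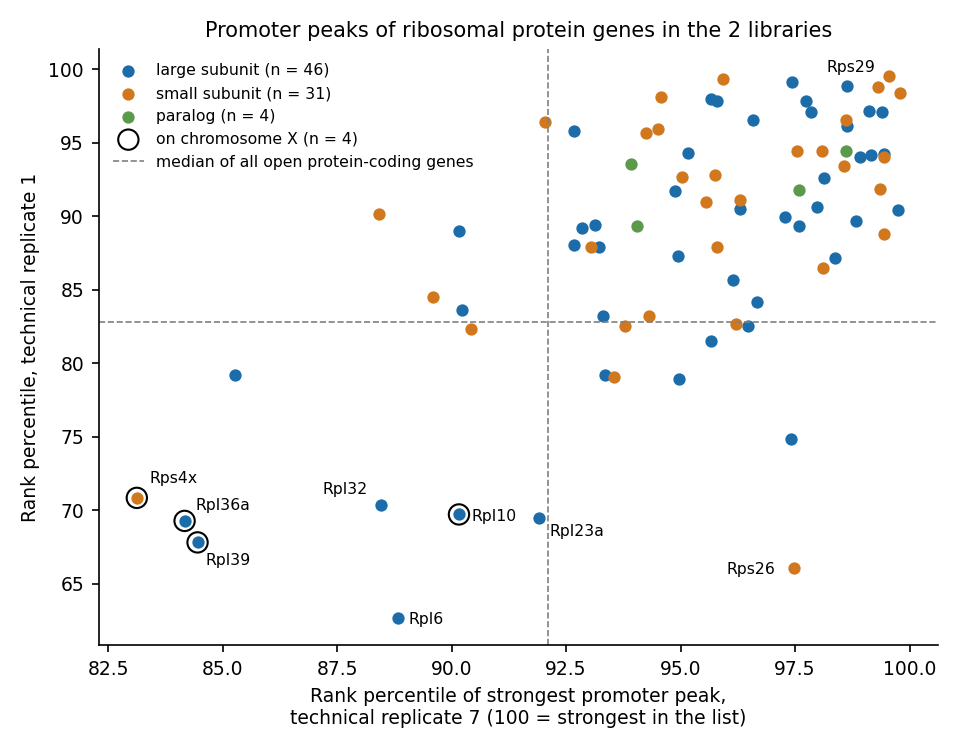
Rank percentile of the strongest promoter peak in technical replicate 7 (horizontal axis) and technical replicate 1 (vertical axis) for the 81 open ribosomal protein genes; colours give the class, rings mark chromosome X and dashed lines the medians of all open protein-coding genes. The 4 ringed genes sit at the lower left, with percentiles from 67.8 to 70.8 in technical replicate 1, and Rps29 sits at the upper right.

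The highest mean rank over both libraries was held by the promoter of Rps29. Rps29 is a zinc-binding protein of the small subunit and is mutated in Diamond-Blackfan anaemia. Its peak in technical replicate 7 (chr12:69159049-69159301) had a density of 6.22 and a percentile of 99.5, and that in technical replicate 1 had a density of 5.83 and a percentile of 99.5. Rps2, a core small subunit protein, reached 99.3 and 98.8. Both small subunit genes lay in the top 2% of each list. High mean ranks were also held by the large subunit genes Rpl23 (98.6 and 98.9), Rpl37 (97.4 and 99.1) and Rpl18 (99.4 and 97.1).

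The lowest ranks belonged to genes of chromosome X and to 2 large subunit genes on other chromosomes. Rpl6 was lowest in mean rank, with a density of 2.29 (percentile 88.8) in technical replicate 7 and 1.58 (62.6) in technical replicate 1. Rpl39 had densities of 1.71 and 1.77 (84.5 and 67.8). For Rpl36a they were 1.68 and 1.83 (84.2 and 69.3). These promoters were open in both libraries but well below the median of the family. Rps4x, the X-linked form of the small subunit protein eS4, had 1.59 and 1.90 (83.1 and 70.8). Rpl32 had 2.22 and 1.88 (88.4 and 70.4), and Rpl10, a protein joined late to the large subunit, had 2.55 and 1.85 (90.2 and 69.7). All 4 X-linked members were thus among the 6 with the lowest mean rank.

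Chromosome X as a whole also ranked low. The X-linked ribosomal protein genes had median percentiles of 84.3 and 69.5, and the 77 open autosomal ones 96.1 and 90.6. Among all open protein-coding genes, the 401 on chromosome X had medians of 81.8 and 52.7, against 92.4 and 83.4 for the 12631 on autosomes. Among CpG-rich genes open in both libraries these medians were 84.5 and 58.9 against 93.9 and 86.7. The median of the X-linked ribosomal protein genes was thus below that of the autosomal sets in both libraries, and in technical replicate 7 it was close to that of CpG-rich X-linked genes. The embryos were pooled over both sexes; the cause of the lower ranks was not tested.

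The 20 genes linked to Diamond-Blackfan anaemia had peak ranks close to those of the rest of the family. Their median percentiles were 95.8 and 91.1, against 95.9 and 90.1 for the other 61 open members. Their ranges, 90.2 to 99.5 and 66.1 to 99.5, lay almost wholly within those of the others (83.1 to 99.8 and 62.6 to 99.3). Rps19, the gene most often mutated in that disease, had densities of 5.38 and 4.41 (percentiles 98.6 and 96.6). Rpl5 and Rpl11, which bind the ubiquitin ligase of p53 when ribosome assembly fails, differed from each other: Rpl5 had percentiles of 97.3 and 90.0, and Rpl11 had 93.3 and 79.2. Rps26 held the widest gap between the libraries among these genes. Its strongest peak had a density of 4.77 (97.5) in technical replicate 7, at position −84, and 1.70 (66.1) in technical replicate 1, at +288.

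Rank within the family was only moderately shared by the libraries. Spearman's rho across the 81 genes was 0.554, against 0.870 across 13036 open genes, whose ranks span a wider range. The strongest peaks of the libraries overlapped for 74 of the 81 genes (91.4%, against 92.2% of open genes), with a median gap of 29 bp between their summits. For 7 genes they did not (Rpl4, Rpl7, Rpl10, Rpl23a, Rpl30, Rpl32 and Rps26; Rpl4 is named because it completes this list). Rank also rose with base composition across members, as a description: rho with GC content was 0.365 and 0.441, and with CpG observed over expected 0.313 and 0.294 (n = 81, with all values from the same libraries and promoters).

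Strongest promoter peaks were of ordinary width. They had a median of 255 bp in technical replicate 7 (range 221 to 463) and 375 bp in technical replicate 1 (88 to 686), against 270 and 388.5 bp for open genes. The peak was wider in technical replicate 1 for 70 of 81 genes, and for 10795 of 13036 open genes. The widest by mean of both libraries were Rpl13a (380 and 656 bp), Rps18 (328 and 639 bp) and Rpl7 (251 and 686 bp). The narrowest were Rpl23a (267 and 88 bp), Rpl21 (282 and 89 bp) and Rplp2 (267 and 152 bp). In these 3 the small width came from technical replicate 1. A hotspot, a broader region of raised cutting, covered the principal start of 81 genes in technical replicate 7 and 80 in technical replicate 1, against 61.6% and 57.8% of all protein-coding genes. The open gene without one was Rpl35.

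Summits lay close to the annotated starts. The median distance was −34 bp in technical replicate 7 (quartiles −66 and 10), and technical replicate 1 gave −9 bp (−47 and 41). Open protein-coding genes had medians of −40 and −24 bp. Within 100 bp of the principal start lay 76.5% and 69.1% of the family's summits, against 58.9% and 54.9% for open genes. Summits were upstream of the start in 65.4% and 53.1% of members, against 71.03% and 61.1% of open genes. By role, the small subunit genes had 27 of 31 summits within 100 bp in technical replicate 7 and the large subunit genes 31 of 46; in technical replicate 1 these counts were 21 and 31. A peak covered the principal start itself in 76 and 70 of the 85 genes, against 52.2% and 47.8% of all protein-coding genes.

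**Figure D2:**
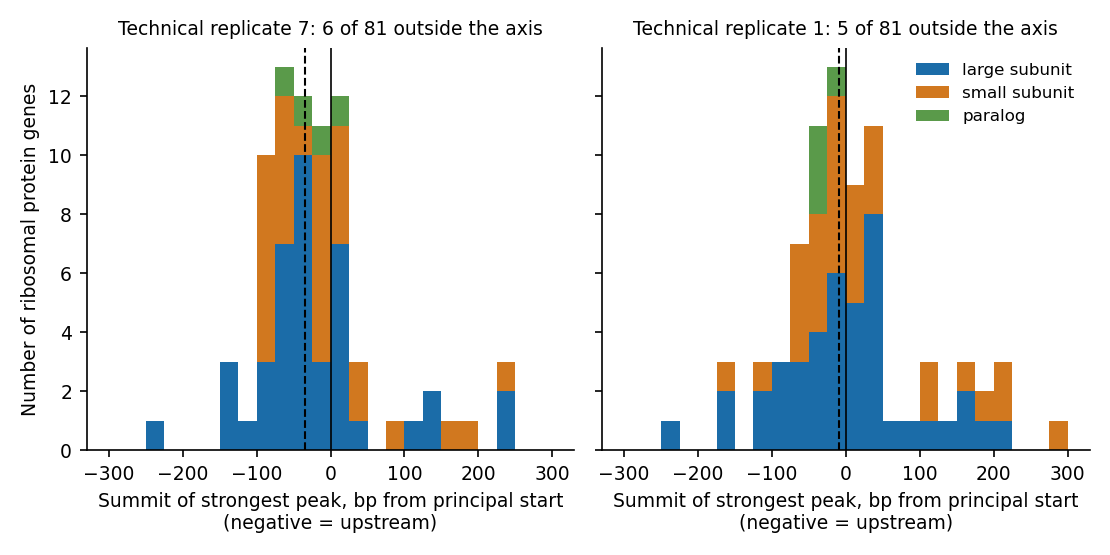
Number of ribosomal protein genes by the distance of their strongest peak's summit from the principal start, in bins of 25 bp, for each library; colours stack the classes, the solid line is the start and the dashed line the median (−34 and −9 bp). The summits gather within 100 bp of the start and lie farther downstream in technical replicate 1.

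The 3 genes with the farthest summits had them near another annotated start of the same gene. Rpl18 had its strongest peak at 2575 bp downstream in technical replicate 7 and 2576 bp in technical replicate 1. Other annotated Rpl18 starts lie 2614 to 2700 bp downstream. A weaker peak stood at the principal start, with its summit at −141 and a density of 4.95 against 6.04 in technical replicate 7, and at −167 with 3.37 against 4.55 in technical replicate 1. Rps25 had its strongest summits at 500 and 474 bp, and annotated starts at 556 and 558 bp. Rpl35 had them at 427 and 459 bp, with 1 start in the basic annotation, while RefSeq places its start 493 bp downstream. Rpl30 was split: in technical replicate 7 the summit at 353 bp had a density of 3.85, and in technical replicate 1 the summits at 331 and 77 bp had 3.03 and 3.12. An annotated Rpl30 start lies at 418 bp.

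The choice of start therefore moved these distances, and RefSeq starts were set beside those of GENCODE after this was seen. RefSeq promoters of GRCm38.p6 were matched by symbol and chromosome for 65 of the 85 genes. The RefSeq start lay downstream of the principal start in 40 of them, by a median of 12 bp over the 65, against a median of 0 bp over 16539 matched protein-coding genes. Measured from the nearest RefSeq start, the family's summits had medians of −52 and −29 bp (n = 61), and 85.2% and 83.6% lay within 100 bp. The same shares for open genes (n = 10233) were 65.3% and 61.7%. Taking the start nearest each summit can only shorten the distance where a gene has several, and fewer genes were matched. The shares are thus not comparable with those from the principal start. The summit was upstream of the RefSeq start in 86.9% and 68.9% of the 61 genes, against 78.4% and 68.1% of open genes.

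The share of genes with a pyrimidine start depended on which starts were read. A pyrimidine start was defined as C at the first base followed by 4 more pyrimidines. It was found at the principal start of 9 of 85 genes (10.6%, interval 4.96 to 19.2), against 2.28% of all protein-coding genes. It was found at any RefSeq start of 14 of 65 genes (21.5%, 12.3 to 33.5), against 2.71%. At any start of the basic annotation the share was 24.7%, against 4.22%. The 10.6% reads only the principal start, so its gap to the 21.5% is not a difference between annotations alone. In either annotation the share was above that of all genes, and in either it was a minority of the family. The pattern occurred somewhere within 10 bp of the principal start in 43.5% of the family and 30.7% of all protein-coding genes. The lines below show 10 bases before the RefSeq start to 19 after it for 6 open genes and for Rps27rt, chosen after their values were seen; sequences are from RefSeq on GRCm38.p6 and capitals mark the pyrimidine run from the start on.
Rpl15: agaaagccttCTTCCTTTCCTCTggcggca
Rpl35: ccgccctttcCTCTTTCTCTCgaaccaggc
Rpl35a: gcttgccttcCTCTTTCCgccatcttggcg
Rps10: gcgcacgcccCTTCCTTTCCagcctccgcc
Rps18: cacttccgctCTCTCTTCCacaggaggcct
Rps27: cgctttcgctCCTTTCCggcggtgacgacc
Rps27rt: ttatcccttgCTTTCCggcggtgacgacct

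For the 6 open genes shown, the summits lay upstream of these starts, from −140 to −27 in technical replicate 7 and from −98 to −2 in technical replicate 1. From the RefSeq start of Rpl35 (chr2:39005112-39005141 for the stretch shown, minus strand) the summits lay at −66 and −34, from that of Rps10 (chr17:27635225-27635254, minus strand) at −64 and −98, and from that of Rpl35a (chr16:33056472-33056501, plus strand) at −27 and −22. Rps27rt, a gene on chr9 with the symbol of a retrocopy of Rps27, has the same kind of start without a peak. At the best offset of their principal starts, Rps27rt matched Rps27 at 43 of the first 60 bases and at 11 of the 60 bases before them. The strongest Rps27 peaks (percentiles 95.8 and 87.9) covered bases on both sides of its start, so they span the matching stretch and the upstream stretch with few matches.

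Footprints, short stretches protected from cutting inside open regions, were listed in the promoter windows of the same number of genes, 81 of 85, in each library. The share over all protein-coding genes came to 60.4% in technical replicate 7 and 65.6% in technical replicate 1. The family had 336 footprints in technical replicate 7 (median 4 per gene) and 723 in technical replicate 1 (median 9). Open genes had medians of 3 and 8 per gene. The lists were made by different processing, so their numbers are not compared. Most footprints per gene were found at Rps19 (8 and 19), Rps18 (8 and 18) and Rpl7 (4 and 21). Of the family's footprints in technical replicate 7, 234 of 336 (69.6%, 64.4 to 74.5) overlapped one of technical replicate 1, against 68.2% for open genes.

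Footprints gathered around the start. They had median positions of −38.8 in technical replicate 7 and −2 in technical replicate 1, and a median width of 10 bp in both. Within 100 bp of the principal start lay 59.0% and 40.7% of them, against 48.2% and 34.8% for open genes. The 100 bp just upstream of the start held 1.58 footprints per open ribosomal protein gene in technical replicate 7, against 1.03 per open gene, and the 100 bp from the start on held 0.840 against 0.540. In technical replicate 1 these values were 1.77 against 1.59 and 1.77 against 1.29. From 150 bp before to 100 bp after the start, footprints covered 12.9% and 22.0% of bases in the family and 8.79% and 17.98% in open genes. The base at the principal start itself was covered in 14 and 22 of the 85 genes, against 1440 and 2912 of 13036 open genes.

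**Figure D3:**
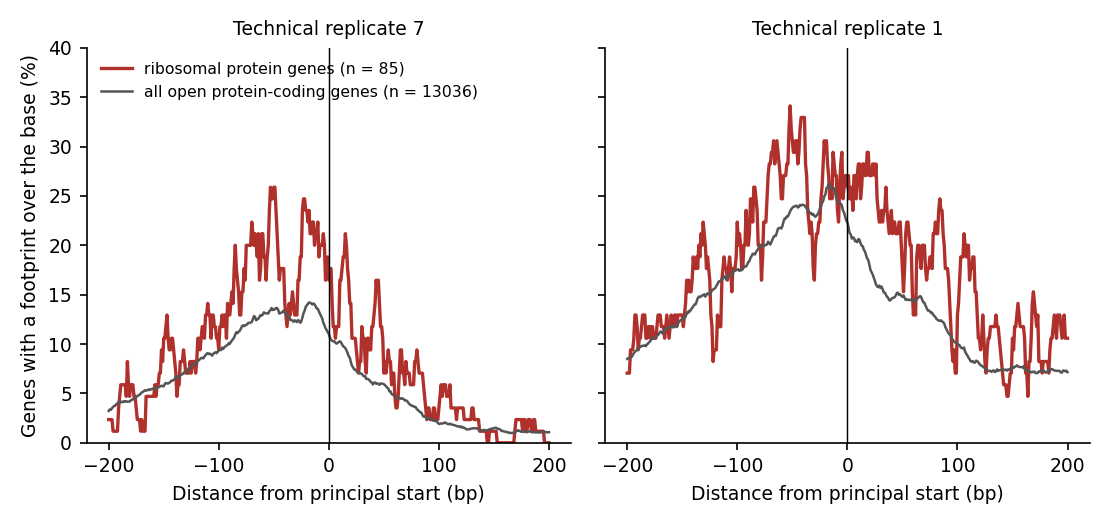
Share of genes with a footprint over each base, from 200 bp before to 200 bp after the principal start, for the 85 ribosomal protein genes (red) and the 13036 open protein-coding genes (grey) in each library. The red line is jagged, since each gene is more than 1% of the family, and it lies above the grey line at most bases near the start but not at all of them.

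The letters of these promoters were searched for 9 motifs on both strands, from 150 bp before to 100 bp after the principal start. A match is a description of the letters and not evidence of binding. The ETS motif CCGGAAG, the core bound by GABP, was in 31 of 85 genes (36.5%, 26.3 to 47.6), against 10.8% of all protein-coding genes and 16.5% of open ones. The share was 46.2% (34.8 to 57.8) in genes of mitochondrial ribosomal proteins, 48.0% (27.8 to 68.7) in those of biogenesis and 26.3% (9.15 to 51.2) in those of translation. The ZBTB33 motif TCTCGCGA was in 13 of 85 (15.3%, 8.40 to 24.7), against 1.25% of all and 1.99% of open genes. In mitochondrial ribosomal protein genes it was found in 2 of 78 (2.56%, 0.312 to 8.96). It was found in 8% (0.984 to 26.03) of biogenesis genes and 5.26% (0.133 to 26.03) of translation genes. The family's intervals for both motifs overlapped those of each of these lists. For ZBTB33 and the mitochondrial ribosomal protein genes the overlap ran only from 8.40 to 8.96. Overlap does not show that shares are equal, and no difference between the lists was tested.

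Of the other motifs, SP1 was less frequent and TATA more frequent than in open genes. The SP1 motif GGGCGG was in 51.8%, below the 65.3% of open genes, and the NFY motif CCAAT was in 27.1%, against 32.6%. The TATA motif TATAAA was in 12.9% of the family (6.64 to 22.0) and 4.44% of open genes. Over all protein-coding genes the shares were 44.9% for SP1, below the family's, and 9.47% for TATA, within the family's interval. The YY1 motif AANATGGC was in 12.9%, against 8.58% of open genes and 29.5% of mitochondrial ribosomal protein genes. The E-box CACGTG was in 8.24%, the CRE TGACGTCA in 4.71% and the NRF1 motif GCGCATGCG in 3.53%, against 8.65%, 3.25% and 3.20% of open genes. None of the 9 motifs was found in 13 of the 85 windows (15.3%), against 13.7% for open genes. No searched motif contains another. A palindrome TCTCGCGAGA holds the ZBTB33 motif on both strands.

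**Figure D4:**
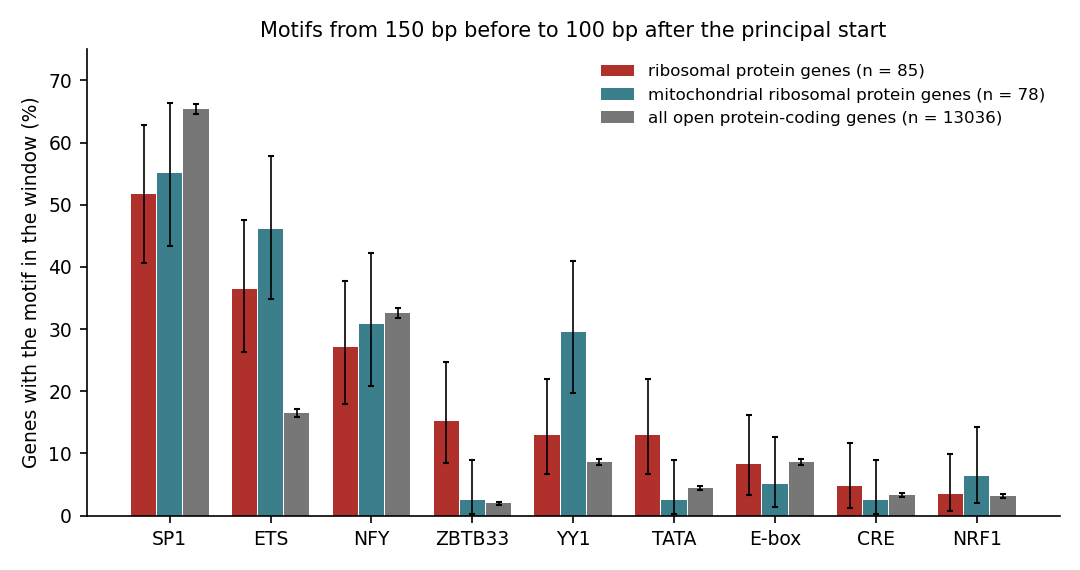
Share of genes with each motif in the window, as bars with exact 95% intervals, for ribosomal protein genes (red, n = 85), mitochondrial ribosomal protein genes (teal, n = 78) and all open protein-coding genes (grey, n = 13036). The ETS bars of both ribosomal lists stand above the grey bar of 16.5%, and the ZBTB33 bar is 15.3% in red and 2.56% in teal.

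The full palindrome TCTCGCGAGA was in 7 ribosomal protein genes, among them Rpl10a, Rpl17, Rpl26, Rps6, Rps7 and Rps28 (8.24%, 3.38 to 16.2). It was in 0.561% of all protein-coding genes and 0.898% of open ones. A footprint touched it in 4 of the 7 genes by technical replicate 7 and in 5 by technical replicate 1. In open genes with the palindrome these counts were 53 and 81 of 117. In Rpl26 it lay at −43 to −34, within a footprint from −53 to −30 in technical replicate 1, while one from −36 to −30 in technical replicate 7 met only its end. Its first base lay at −43 in Rpl26 and at 55 in Rps7, so it held no fixed distance from the start. Rps15a, with the 8 letters on 1 strand at −25 to −18, had footprints from −21 to −9 and −21 to −13. Over the family, 11 of 20 matches to TCTCGCGA were touched by a footprint in each library, against 43.8% and 59.9% of matches in open genes. A palindrome counts once for each strand in these numbers. By gene, 7 of the 13 with the motif had a touched match in each library, against 120 and 155 of 259 open genes.

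ETS matches were footprinted in part. Of 39 matches in the family, 15 were touched in technical replicate 7 (38.5%) and 17 in technical replicate 1 (43.6%), against 33.0% and 55.0% in open genes. In Rps7 the match at −14 to −8 lay under footprints from −16 to −7 and −14 to −5. In Rpl11 the match at 6 to 12 was met in part by a footprint from −2 to 10 in technical replicate 7 and lay within −7 to 21 in technical replicate 1. In Rpl37 the match at −55 to −49 was met in part by −53 to −46 and lay within −57 to −44. The matches of Rpl26 at −13 to −7 and of Rpl37 at 2 to 8, both in capitals above, had none in either library. So a printed match did not always carry a footprint.

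CRE and NRF1 matches were few and all were touched by footprints in both libraries. The 4 CRE matches were those of Rpl13, Rpl27a, Rps9 and Rps29. In Rps29 the match at −64 to −57 met a footprint from −75 to −64 in technical replicate 7 by 1 base, and one from −114 to −61 in technical replicate 1. In open genes 69.8% and 82.2% of CRE matches were touched. The 5 NRF1 matches fell in 3 genes, Rpl5, Rpl10a and Rpl37a. In Rpl10a and Rpl37a, overlapping matches on both strands were counted apart. Among NRF1 matches in open genes, 87.4% and 88.1% were touched. With 4 and 5 matches, these counts do not separate the family from open genes.

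TATA letters in the family were mostly not where a TATA box lies. Of 13 matches, 9 had their centre downstream of the principal start, with a median position of 19.5, against −29.5 over all protein-coding genes. Of 6 forward matches in genes with a RefSeq start, 0 began between −35 and −25 from the principal start and 1 did so from the RefSeq start, that of Rpl22l1 at −28. Over all protein-coding genes with a RefSeq start, 357 of 1151 forward matches began there from the principal start. Rps2 had a match at 17 to 22 under footprints from 10 to 30 and 10 to 48. Of the matches in the family, 5 and 8 were touched by a footprint (38.5% and 61.5%), against 11.2% and 18.6% in open genes. These shares rest on 13 matches and were not tested. Footprints also covered more of the searched bases in the family, 12.9% and 22.0% against 8.79% and 17.98%.

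**Figure D5:**
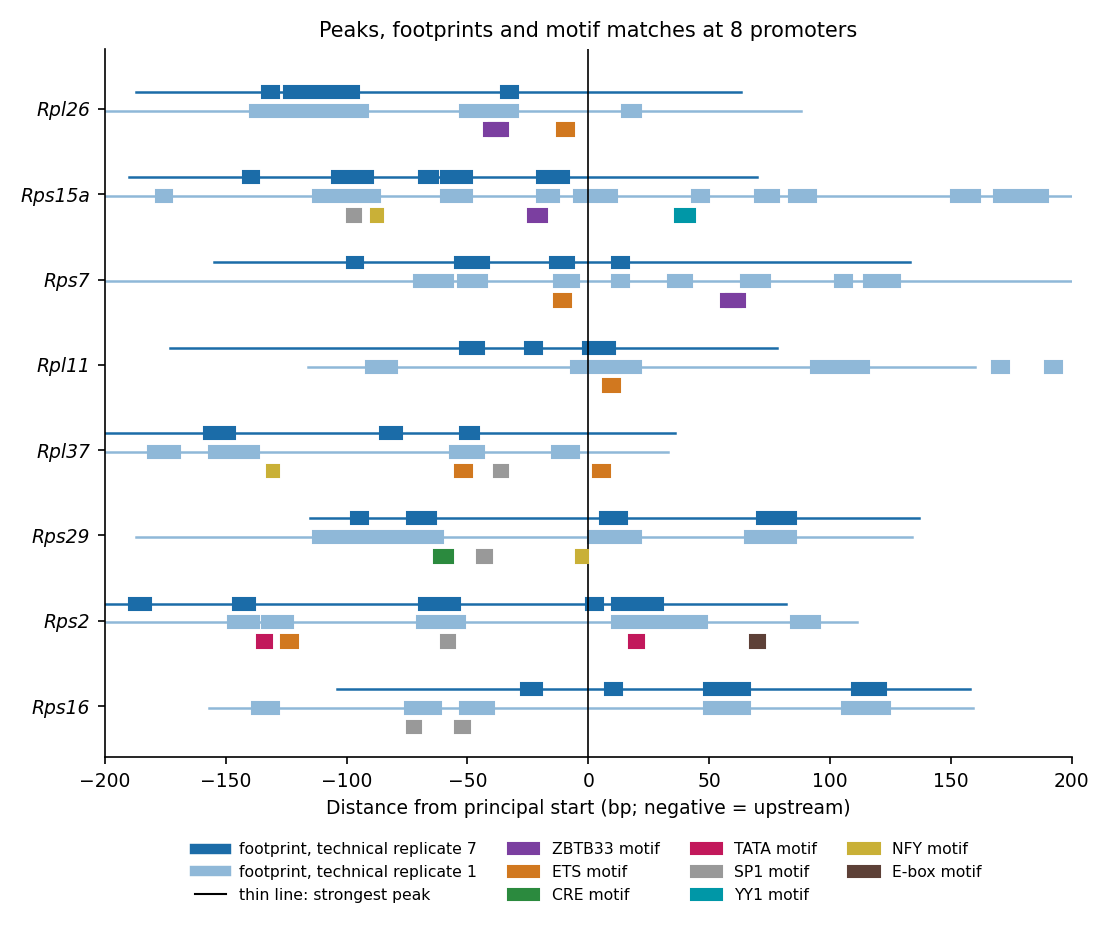
Strongest peak (thin lines), footprints (blue blocks, dark for technical replicate 7 and light for technical replicate 1) and motif matches (coloured blocks) by distance from the principal start at 8 ribosomal protein promoters. Footprints lie on both sides of the start, and matches such as that of Rps7 at −14 to −8 lie under footprints of both libraries while that of Rpl26 at −13 to −7 lies under none.

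Peak ranks with and without a motif were close for ETS and ZBTB33 and differed more for some other motifs. The 30 open genes with an ETS match had median percentiles of 95.7 and 90.0, and the 51 without one 96.1 and 90.4. The 13 with the ZBTB33 motif had 95.9 and 91.1, against 95.8 and 90.3 for the 68 without. Genes with an SP1 match (n = 44) had 96.1 and 93.5, against 95.8 and 87.9 for the other 37. The 23 genes with an NFY match had 97.4 and 91.0, against 95.7 and 89.5. For the E-box (n = 7) the medians were 96.6 and 95.8 against 95.8 and 89.8, and for the CRE (n = 4) 97.7 and 93.8 against 95.8 and 90.1. For YY1 (n = 11) the medians were lower with a match, 95.7 and 89.2 against 96.0 and 90.8. Genes with a TATA match (n = 11) had 94.9 and 94.5 against 95.9 and 89.8. Those with an NRF1 match (n = 3) had 97.3 and 89.7 against 95.8 and 90.6. No test was made of these differences. The ranges with and without ETS overlapped widely, from 83.1 to 99.8 with the match and 84.2 to 99.8 without it in technical replicate 7.

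A neighbouring gene could share the promoter of some members. Another protein-coding start lay within 1 kb of the principal start in 14 of the 85 genes, on the opposite strand in 13. The same-strand case was Rps10 with RPS10-NUDT3, whose symbol holds that of Rps10 itself. This share was not computed over all protein-coding genes, so it is not read as a trait of the family. Rps28 and Ndufa7, a subunit of respiratory complex I, start 10 bp apart, and Rps27 and Rab13, a small GTPase, 44 bp apart. The 14 genes with such a neighbour had median percentiles of 95.4 and 91.5, against 95.9 and 90.0 for the 67 open genes without one. At these promoters the opening of each gene cannot be told apart. Many ribosomal protein genes also have processed pseudogenes, and the handling of reads that match several places is not given in the sources used here.

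Among the model promoters, Rps16 had densities of 5.36 and 3.84 (percentiles 98.6 and 93.4), with summits at 39 and 3 bp. Rpl13a had 6.60 and 3.45 (99.8 and 90.4), with summits at −141 and −113. Both lay above the median of open genes in each library. Rpl30 had 3.85 and 3.12 (94.9 and 87.3). Rpl7 had 2.56 and 2.79 (90.2 and 83.6), with its strongest summit at 233 bp in technical replicate 7 and at −333 in technical replicate 1. Rpl32 was the weakest of the 5, as given above. Its strongest peak in technical replicate 7 had its summit at −318, with a second peak at −35 of nearly equal density (2.07 against 2.22).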

How the data were processed

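DNase-seq peaks, hotspots and footprints of 2 libraries of 1 biological sample were used as deposited, on assembly mm10 per the labels. Aligner and callers were not given in the sources used here. Per the accompanying notes, peaks and hotspots were derived from the reads of each library, footprints of technical replicate 7 from its hotspots and those of technical replicate 1 from alignments and cut rates. The deposited peak lists give a signal, the density of DNase cuts, whose scale is not stated in the headers; it was used for ranks within a list. Deposited hotspots carry a −log10 FDR. The deposited footprints are positions; those of technical replicate 1 carry a constant 0.01, read as a p-value threshold of the authors. Sequencing depth is unknown; densities move in steps of 0.00401 and 0.0101. Principal starts came from GENCODE vM21 basic transcripts (APPRIS tag, support level, most shared start, then the 5′-most), sequence from GRCm38.p6, whose chromosome lengths hold every peak. Distances, overlaps and motif searches (Python 3.11.15, numpy 2.4.6, pandas 2.3.3, scipy 1.17.1) were tested on simulated data. Named genes are the 6 highest and lowest in mean rank, closed members, the 3 widest, narrowest, farthest-summit and most footprinted, 5 model promoters and 20 Diamond-Blackfan anaemia genes; others were named after their values were seen. Values of 1 gene and 1 further sequence are not reported here. The members and lists were chosen with earlier results of these data known, and the CpG-rich background was added after the data were seen. Alternatives changed windows, lists, ranks, starts and motif windows.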

Additional observations from a re-analysis of the deposited data

How the results depend on the processing

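Peak, rank, width, summit, footprint and motif shares were recomputed under the settings chosen first, where 85 values stayed close to the reported ones and 13 moved, and under those added later, where 2 stayed close and 3 moved. Close meant a count within a set factor, a share inside its counting interval, or a median moved by less than the spread between the libraries. These limits are wide: an E-box share of 3.53% in the shorter motif window counted as close to 8.24%. The comparisons by disease gene, neighbour and motif rank, and the palindrome and TATA positions, were not recomputed. Leaving out either library gave 81 to 81 ribosomal protein genes with a peak. Ranking peaks by smoothed height lowered the median percentile of technical replicate 1 to 84.9, while open genes fell to 76.9. A motif window of 100 bp before to 50 bp after the start lowered the ETS share to 25.9%, and that of open genes to 13.2%. The pyrimidine start share rose from 10.6% to 43.5% within 10 bp of the principal start, against 30.7% of all protein-coding genes. At any basic start it was 24.7%, against 4.22% of all protein-coding genes. Requiring a whole motif inside a footprint lowered the share of footprints in technical replicate 7 for ETS from 6.22% to 2.67%, for ZBTB33 from 3.11% to 0.889%, for CRE from 2.22% to 0.444% and for the E-box from 0.444% to 0%. In technical replicate 1 it lowered YY1 from 2.10% to 0.601%, NFY to 0.601%, TATA from 2.70% to 1.2%, CRE to 0.300% and the E-box from 0.601% to 0%. The other shares of footprints with a motif stayed within their counting intervals under that rule. Of the alternatives chosen after seeing the data, the nearest RefSeq start gave summit medians of −52 and −29 bp and any RefSeq start a pyrimidine share of 21.5%, and leaving out chromosome X gave median percentiles of 96.1 and 90.6. Depth is unknown, so no limit was set on footprints missed. No paired analysis was possible because there is 1 group and no test.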
